A study of Mus musculus with 6 samples.

Results

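This account covers the serum amyloid A genes Saa1, Saa2, Saa3 and Saa4 and the short pentraxin genes Apcs and Crp in mouse liver. The genes were taken by name, and for each gene the probe set was chosen by its signal level, as the brightest on average over the 6 arrays among those that name no other gene. Of the 6 genes, 5 could be read this way, among 22180 genes measured alone. Saa1 could not, because the probe set that names it also names Saa2, and this shared probe set is reported in its place. The group was put forward with earlier results of these arrays known, so the differences between SHH and GFP livers are given as descriptions.

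The arrays came from the livers of 6 male C57BL/6 mice kept in a specific pathogen free room, 1 array per mouse. The GFP group (mice 13, 21 and 6) expressed green fluorescent protein, and the SHH group (mice 26, 28 and 31) expressed Sonic Hedgehog, the secreted ligand of the Hedgehog pathway. According to the design text, the genes were delivered by hydrodynamics-based transfection, in which DNA is injected rapidly in a large volume and is taken up mainly by hepatocytes, and the study examined fibrosis and the expression of genes tied to it. The sources used here do not give the promoter of the introduced DNA, the age of the mice or the time after injection. The labels say that no other treatment was applied in either group.

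Serum amyloid A proteins are small apolipoproteins that circulate on high-density lipoprotein. Saa1 and Saa2 are made by hepatocytes in the acute phase response, when interleukin-6, interleukin-1 and tumour necrosis factor act through STAT3, NF-kB and C/EBP factors on their promoters. Saa3 is also made outside the hepatocyte, by macrophages and adipocytes among others, while Saa4 is known as the constitutive member of the family. Apcs encodes serum amyloid P component and Crp encodes C-reactive protein, both ring-shaped pentraxins that bind microbial surfaces and cell debris and engage complement. In mice serum amyloid P component is the strongly induced pentraxin, whereas in humans C-reactive protein has that role.

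The 4 Saa genes lie side by side on chromosome 7 and Crp and Apcs next to each other on chromosome 1 in the RefSeq table of assembly GRCm38.p6, with no other protein-coding gene of that table between members of either group. In that table Saa1 carries Saa2 as a synonym and Saa2 carries Saa1, so the names of these near-identical genes can be exchanged between annotations. The 250 bases before the RefSeq start are shown for the genes whose means differed by at least 1 on the log2 scale (Saa2, Saa3 and Apcs), and for Saa1 because it shares a probe set with Saa2. All are from GRCm38.p6 and run 5′ to 3′ toward the gene. Saa1 is chr7:46742981-46743230 on the minus strand, Saa2 is chr7:46751583-46751832 on the plus strand, Saa3 is chr7:46715677-46715926 on the minus strand and Apcs is chr1:172895055-172895304 on the minus strand. Capitals mark exact matches on either strand to TTNNGNAA, a pattern of C/EBP type, and TTCNNNGAA, a pattern of STAT type.
Saa1: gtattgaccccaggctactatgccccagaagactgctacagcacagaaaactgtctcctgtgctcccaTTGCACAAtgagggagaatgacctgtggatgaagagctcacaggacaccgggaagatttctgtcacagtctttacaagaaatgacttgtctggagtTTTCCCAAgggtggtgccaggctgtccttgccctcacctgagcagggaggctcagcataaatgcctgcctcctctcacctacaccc
Saa2: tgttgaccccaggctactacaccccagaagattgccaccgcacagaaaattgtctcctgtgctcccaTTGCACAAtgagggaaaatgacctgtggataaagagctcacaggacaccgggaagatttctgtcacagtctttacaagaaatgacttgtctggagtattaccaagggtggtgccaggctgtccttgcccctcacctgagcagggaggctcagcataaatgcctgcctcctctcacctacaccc
Saa3: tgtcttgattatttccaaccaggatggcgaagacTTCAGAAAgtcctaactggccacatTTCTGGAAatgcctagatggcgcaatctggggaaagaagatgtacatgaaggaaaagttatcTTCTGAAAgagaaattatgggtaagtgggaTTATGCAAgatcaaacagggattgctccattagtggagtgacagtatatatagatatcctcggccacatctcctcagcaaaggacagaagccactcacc
Apcs: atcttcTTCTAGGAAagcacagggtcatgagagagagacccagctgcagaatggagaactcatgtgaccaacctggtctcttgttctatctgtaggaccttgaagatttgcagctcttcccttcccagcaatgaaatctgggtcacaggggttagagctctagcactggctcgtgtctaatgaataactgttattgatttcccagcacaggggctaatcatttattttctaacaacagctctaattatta

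The Saa1 and Saa2 windows were identical at 238 of 251 aligned columns (94.8%), against 43.8% to 49.8% for every other pair of the 6 windows. TTNNGNAA was found in 5 of the 6 members' windows, all but that of Apcs, and in 36.8% of all 32851 windows of this length in the table. Saa3 held 4 matches to it, Saa1 and Saa4 held 2 each and Saa2 and Crp 1 each. Both Saa1 and Saa2 held TTGCACAA, starting 182 and 183 bases before the start. Apcs alone held TTCNNNGAA, which occurs in 7.02% of all windows, as TTCTAGGAA starting 244 bases before the start. TATAAA was found in Crp only, and in 12.4% of all windows. A pattern of NF-kB type, in a strict and a looser form (0.14% and 1.41% of all windows), had no match in the 6 windows, which says only that those letters are not there. These matches describe letters in a window.

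Values are log2 signals of RMA-processed arrays, on which a step of 1 is a doubling of signal. Where 3 values are given for a group, they stand in the order of GFP mice 13, 21 and 6, or of SHH mice 26, 28 and 31. The median signal of the arrays lay between 4.32 and 4.403, and the 6 reported probe sets were above the median on every array. Shh itself was 3.43 to 3.86 in GFP livers and 4.28 to 4.63 in SHH livers. Markers of hepatocytes were at a like level in both groups, with a mean log2 signal over 10 markers of 11.58 to 11.61 in GFP livers and 11.55 to 11.68 in SHH livers. Because whole livers were measured, a change in the number of cells of a type and a change in RNA per cell cannot be told apart.

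Saa2, Apcs and Saa3 had higher means in SHH livers by 11.01-fold, 3.97-fold and 3.50-fold, and in each case most of the difference came from mice 28 and 31. Saa4 and Crp, their neighbours on the same chromosomes, were within 1.34-fold and 1.19-fold of the GFP means. Each fold is 2 raised to the log2 difference. Of the 5 genes measured alone, 5 had higher means (43.8% of all 22180 genes did), 3 were higher by at least 1 on the log2 scale (0.406% of all genes) and 2 had every SHH liver above every GFP liver (5.26% of all genes). None of the 5 passed the Benjamini-Hochberg threshold of 0.05 over all genes in limma, where 0% of all genes were called higher. At an unadjusted p under 0.05, 3 of the 5 were higher and none lower, against 3.33% of all genes higher and 4.01% lower.

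**Figure D1:**
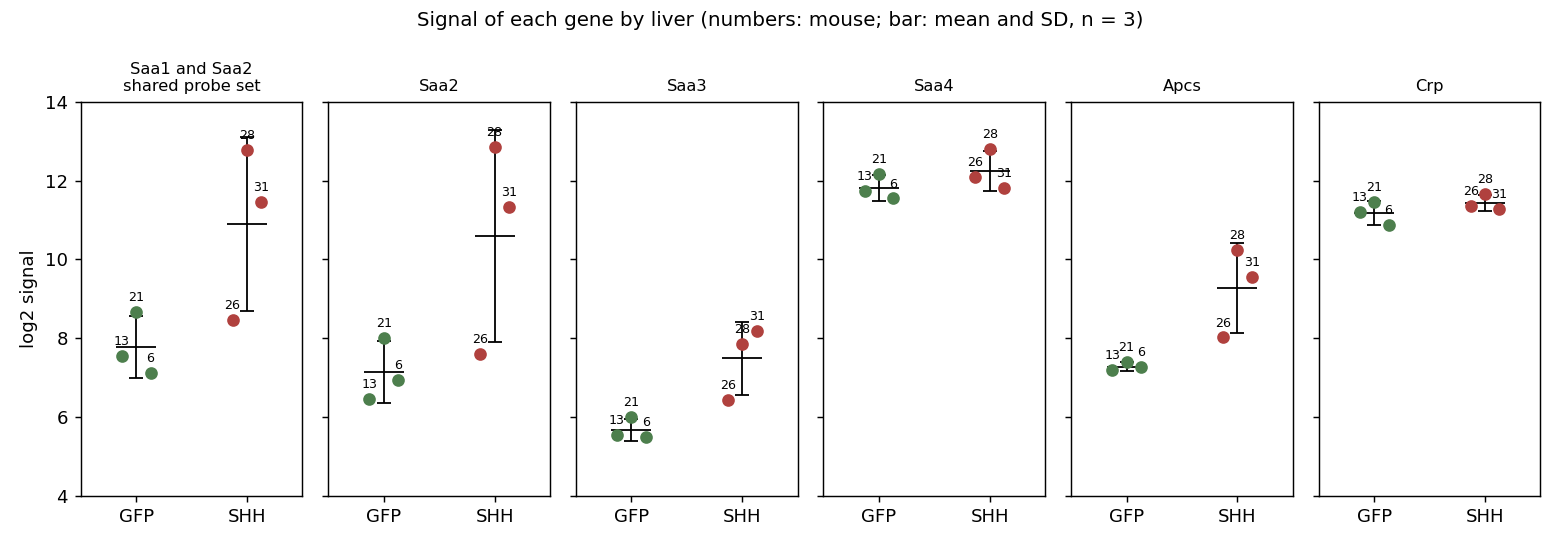
Log2 signal (y axis) of the shared Saa1 and Saa2 probe set and of the 5 genes measured alone, for each GFP liver (green) and SHH liver (red), with mouse numbers and with the mean and SD of 3 livers as bars. In the panels of Saa2, Saa3 and Apcs mice 28 and 31 stand above the other livers, with mouse 26 between 6.42 and 8.02, while the groups of Saa4 and Crp overlap.

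Saa2, an apolipoprotein of the acute phase, had log2 signals of 6.46, 7.996 and 6.95 in the GFP livers, then 7.61, 12.85 and 11.33 in the SHH livers. Mice 28 and 31 stood far above every GFP liver, while mouse 26 lay below GFP mouse 21, so the groups overlapped. The GFP mean was 7.13 ± 0.79 (SD, n = 3) and the SHH mean 10.59 ± 2.70 (SD, n = 3). The difference of 3.46 (95% interval 0.98 to 5.94; limma, adjusted p = 0.556) was number 3 when the 22180 genes are ordered from the highest difference down. Against the GFP mean, the signal was 52.6-fold higher in mouse 28, 18.3-fold in mouse 31 and 1.39-fold in mouse 26.

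The probe set shared by Saa1 and Saa2 gave 7.54, 8.66 and 7.13 in the GFP livers, then 8.47, 12.78 and 11.46 in the SHH livers. It showed the same picture as the probe set of Saa2 alone, with GFP mouse 21 above SHH mouse 26 and the other 2 SHH livers highest. Its difference of 3.13 had a 95% interval of 0.71 to 5.54 (limma over all 41345 probe sets, adjusted p = 0.742). Since the probe set names both genes, it gives no separate value for Saa1. Both probe sets name Saa2, so their likeness is not an independent reading. Whether the probe set assigned to Saa2 alone also reads the near-identical Saa1 was not tested.

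Saa3, the family member also known from macrophages and adipocytes, had 5.54, 6.00 and 5.49 in the GFP livers, then 6.42, 7.85 and 8.19 in the SHH livers. Every SHH liver was above every GFP liver, and mouse 31 was highest here, where mouse 28 was highest for the 5 other probe sets. The difference was 1.81 (95% interval 0.92 to 2.70; limma, adjusted p = 0.409), number 14 in the same order. The lowest SHH liver, mouse 26, exceeded the highest GFP liver by 0.43.

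Saa4, the constitutive family member, had 11.73, 12.18 and 11.55 in the GFP livers, then 12.10, 12.80 and 11.82 in the SHH livers. The groups overlapped, and only mouse 28 stood above all GFP livers. Its difference was 0.42 (95% interval -0.16 to 1.01, limma, adjusted p = 0.791). A doubling, a difference of 1, lies within that interval. With 1 mouse left out the difference lay between 0.14 (without SHH mouse 28) and 0.63 (without SHH mouse 31).

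Apcs, the serum amyloid P component gene, had 7.18, 7.39 and 7.26 in the GFP livers, then 8.02, 10.24 and 9.54 in the SHH livers. The GFP livers lay within 0.20 of each other, the narrowest GFP range of the 6 probe sets, and every SHH liver was above them. The difference of 1.99 (95% interval 0.96 to 3.02; limma, adjusted p = 0.409) was number 7 in that order. Over the GFP mean the signal was 7.80-fold higher in mouse 28, 4.81-fold in mouse 31 and 1.67-fold in mouse 26.

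Crp, the C-reactive protein gene, had 11.21, 11.46 and 10.87 in the GFP livers, then 11.37, 11.65 and 11.27 in the SHH livers. The groups overlapped, with mouse 28 highest and GFP mouse 21 next. Its difference was 0.25 (95% interval -0.15 to 0.66, limma, adjusted p = 0.817). With 1 mouse left out it lay between 0.10 (without GFP mouse 6) and 0.39 (without GFP mouse 21). The upper bound of 0.66 is below the differences of Apcs, Saa2 and Saa3.

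**Figure D2:**
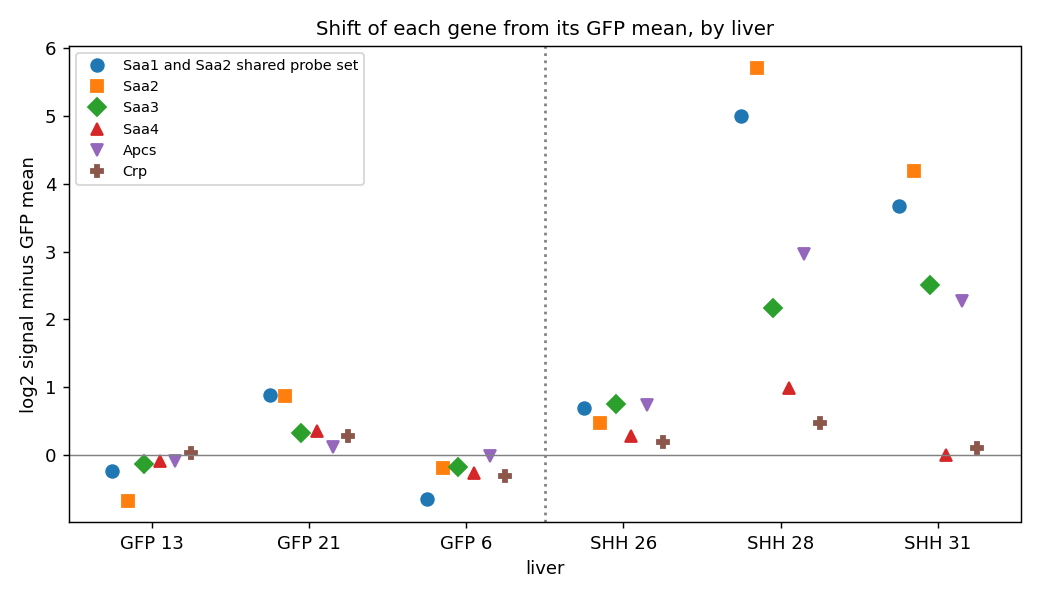
Log2 signal minus the GFP mean of the same probe set (y axis) in each of the 6 livers (x axis), 1 symbol per probe set. Mouse 28 reaches 5.72 for Saa2 and 2.96 for Apcs, mouse 31 reaches 4.19 and 2.27, and all 6 probe sets of mouse 26 lie between 0.19 and 0.75.

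For several members the livers fell in a like order. For Saa4 and Crp, which lie on different chromosomes, the order from low to high was the same: GFP mouse 6, GFP mouse 13, SHH mouse 31, SHH mouse 26, GFP mouse 21 and SHH mouse 28. For Saa2 it was GFP mouse 13, GFP mouse 6, SHH mouse 26, GFP mouse 21, SHH mouse 31 and SHH mouse 28. GFP mouse 21 was the highest GFP liver for all 6 probe sets, by up to 0.88 over the GFP mean. Without GFP mouse 21 the number of members whose SHH livers were all above the GFP livers went from 2 to 5 of 5, where the share over all genes went from 5.26% to 9.08%.

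Pairs of genes from the same chromosome were set against each other within each liver by the shift of one minus the shift of the other, both from their GFP means. Apcs exceeded Crp by 0.55, 2.49 and 2.17 in the 3 SHH livers, where the GFP livers had -0.17 to 0.29, a mean of 1.74. Saa3 exceeded Saa4 by 0.47, 1.18 and 2.51, against -0.05 to 0.08 in GFP livers. Both gave p = 0.1 in an exact two-sided permutation test of the livers, the smallest value that 3 against 3 can give (0.2 after Benjamini-Hochberg adjustment over 4 such comparisons). For Saa2 against Saa4 the excess was 0.19, 4.73 and 4.19, and mouse 26 lay below GFP mouse 21 at 0.50 (exact permutation p = 0.2, adjusted 0.267). Saa2 against Saa3 gave -0.28, 3.55 and 1.68 (exact permutation p = 0.3, adjusted 0.3). These comparisons were added after the values were seen.

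Mouse 26 decided whether members passed over all genes. Without it, Saa2 (4.96, adjusted p = 0.0151), Saa3 (2.34, adjusted p = 0.0060) and Apcs (2.62, adjusted p = 0.0049) passed in limma, 3 of 5 members against 0.135% of all genes called higher. Saa4 (0.49, adjusted p = 0.748), Crp (0.29, adjusted p = 0.805) and the shared probe set (4.34, adjusted p = 0.162 over all probe sets) did not pass there. The labels give no reason to set mouse 26 apart. Mouse 26 was the lowest SHH liver for Saa2, Saa3, Apcs and the shared probe set. Leaving it out therefore raises their differences by construction, and passing there lends the members no support. Results without mouse 26 for other genes are likewise descriptions.

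**Figure D3:**
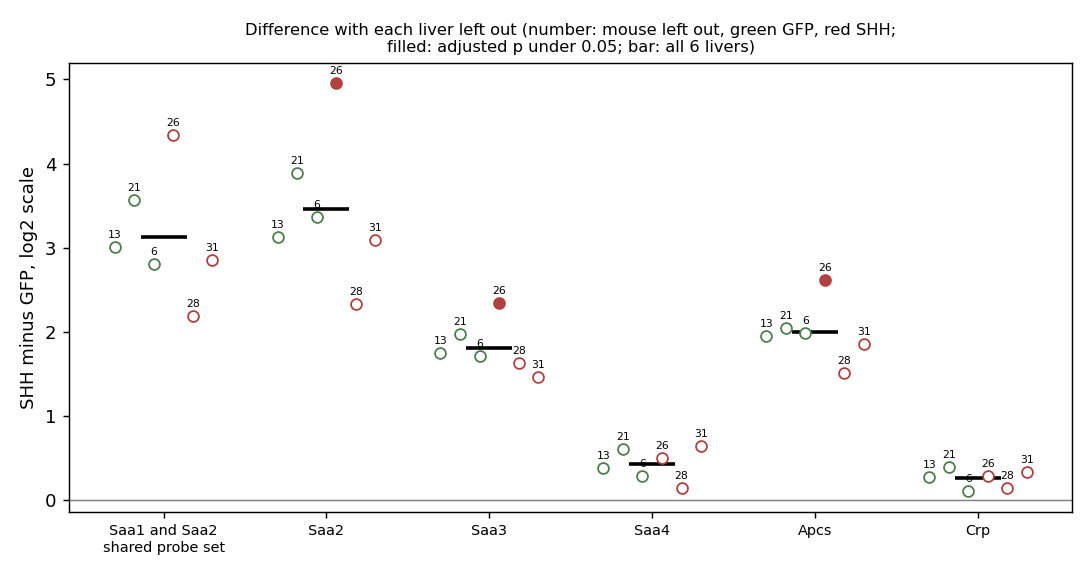
Difference of mean log2 signals, SHH minus GFP (y axis), for each probe set with 1 liver left out at a time (points, with the number of the mouse left out; green a GFP mouse, red an SHH mouse) and with all 6 livers (bar). Filled points have an adjusted p under 0.05, which occurred for Saa2, Saa3 and Apcs when mouse 26 was left out.

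**Figure D4:**
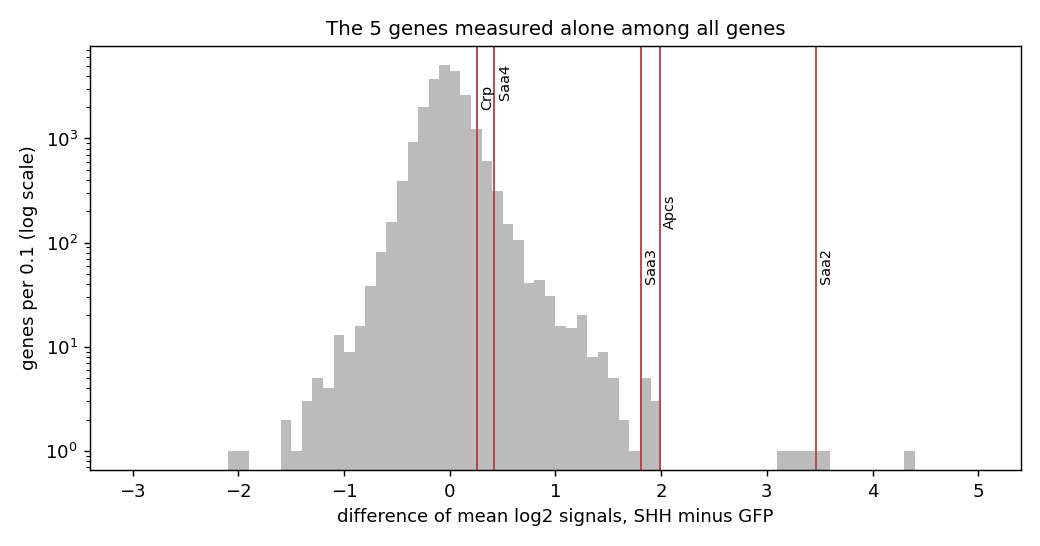
Number of genes (y axis, log scale) by difference of mean log2 signals, SHH minus GFP (x axis, in steps of 0.1), over the 22180 genes measured alone, with red lines at the 5 members. Saa2 at 3.46, Apcs at 1.99 and Saa3 at 1.81 lie in the sparse right tail, Saa4 at 0.42 and Crp at 0.25 nearer the bulk.

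The cytokine genes listed as possible inputs were mostly dim. Of 10 cytokine genes, 7 were below the median signal on every array and 7 had higher means in SHH livers (43.8% of all genes did). None passed over all genes in limma. At an unadjusted p under 0.05, 1 was higher and 1 lower, against 3.33% and 4.01% of all genes. Il1b, which encodes interleukin-1 beta, was 4.55, 4.55 and 5.13 in the GFP livers, then 5.68, 5.96 and 6.92 in the SHH livers, a difference of 1.44 (95% interval 0.75 to 2.13). Every SHH liver was above the GFP livers, with mouse 31 highest. Il6 differed by 0.10 (95% interval -0.27 to 0.47) at signals of 1.89 to 2.47, and Tnf by 0.14 (95% interval -0.24 to 0.51) at 3.61 to 4.19, both below the array medians, where signals tend to understate a change. Lif, an interleukin-6 family cytokine, was lower in every SHH liver by a mean of 0.32, also below the array medians.

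Of 14 receptor and relay genes, 9 had higher means (43.8% of all genes did) and none passed over all genes. In limma 4 were higher and 2 were lower at an unadjusted p under 0.05, where 3.33% of all genes were higher and 4.01% lower. Il1r1, the signalling receptor of interleukin-1, was 7.87, 8.46 and 7.68 in the GFP livers, then 9.22, 10.82 and 9.31 in the SHH livers. No SHH liver overlapped the GFP livers, and mouse 26 was nearly as high as mouse 31. Il1r1 differed by 1.78 (95% interval 0.88 to 2.68). The oncostatin M receptor gene Osmr differed by 0.998 (95% interval 0.35 to 1.65) and the interleukin-6 receptor gene Il6ra by 0.56 (95% interval 0.21 to 0.92), both with every SHH liver above the GFP livers. Lifr, the leukaemia inhibitory factor receptor, was lower in every SHH liver, with a difference of -0.45 (95% interval -0.77 to -0.13). The other gene counted as lower, Irak1, was also lower in every SHH liver, by -0.48 (95% interval -0.88 to -0.08). Il1rap (-0.36) and Traf6 (-0.23) were among the 5 genes of the list with lower means.

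Among 12 transcription factor genes of acute phase promoters, 8 had higher means (43.8% of all genes did) and none passed over all genes. In limma 3 were higher at an unadjusted p under 0.05, against 3.33% of all genes. Stat3, the main transducer of interleukin-6 signals, was 8.66, 9.35 and 8.93 in the GFP livers, then 9.40, 10.09 and 9.55 in the SHH livers. All SHH livers were above the GFP livers, mouse 26 only just above GFP mouse 21. The difference of Stat3 was 0.70 (95% interval 0.19 to 1.21). Fos and Junb, subunits of the AP-1 factor, differed by 0.80 and 0.64, while the C/EBP genes Cebpb and Cebpd differed by 0.15 (95% interval -0.40 to 0.69) and 0.08 (95% interval -0.60 to 0.76). Jun, also an AP-1 subunit, differed by -0.25 (95% interval -1.36 to 0.85). Cebpa, a further C/EBP gene, differed by -0.22 (95% interval -0.50 to 0.07). Its SHH livers were all below the GFP livers, as were those of 1607 of all 22180 genes. Without mouse 26, Fos passed over all genes (1.12, limma, adjusted p = 0.0362), where 0.135% of all genes were called higher.

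Of 8 feedback inhibitor genes, 7 had higher means (43.8% of all genes did) and none passed over all genes. In limma 3 were higher at an unadjusted p under 0.05, against 3.33% of all genes. Socs3, a STAT3 target that shuts off the interleukin-6 receptor, was 5.74, 5.29 and 5.43 in the GFP livers, then 6.04, 7.16 and 6.64 in the SHH livers. The groups did not overlap and mouse 28 was highest, as for Saa2 and Apcs. Socs3 differed by 1.13 (95% interval 0.54 to 1.72). Il1rn, the interleukin-1 receptor antagonist gene, and Nfkbiz, a nuclear NF-kB co-factor, differed by 0.42 and 0.38, and Nfkbia, which encodes the NF-kB inhibitor I-kappa-B alpha, by -0.17 (95% interval -0.55 to 0.22).

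**Figure D5:**
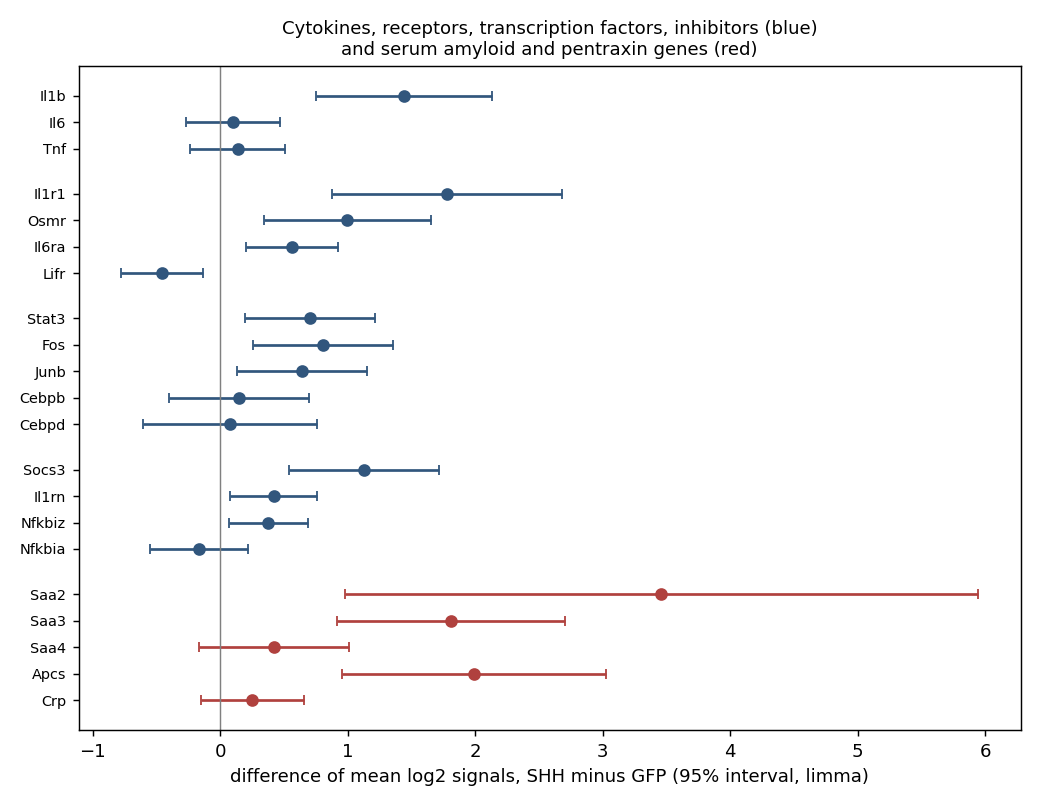
Difference of mean log2 signals, SHH minus GFP, with its 95% interval from limma (x axis), for cytokines, receptors, transcription factors and feedback inhibitors (blue, in that order from the top) and for the 5 members measured alone (red). Il1b, Il1r1 and Socs3 have differences above 1, Il6 and Tnf have intervals that span 0, and the interval of Saa2 is the widest shown.

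Other positive acute phase genes were read for comparison, a list that was chosen with earlier results of these arrays known. Of 23 measured, 22 had higher means (43.8% of all genes did) and 15 had every SHH liver above every GFP liver (5.26% of all genes did). None passed over all genes in limma. At an unadjusted p under 0.05, 19 were higher, against 3.33% of all genes. The median difference was 0.64, against -0.03 over all genes. Without mouse 26, 7 of the 23 passed, where 0.135% of all genes were called higher. The metallothionein genes Mt2 and Mt1, whose proteins bind zinc, differed by 4.30 and 3.12. Lcn2, an iron-scavenging lipocalin, and Orm2, an acid glycoprotein, differed by 3.59 and 3.23. The inhibitor heavy chain gene Itih3 and the fibrinogen-like gene Fgl1 differed by 1.26 and 1.57. Hp, the haemoglobin-binding haptoglobin, differed by 0.57.

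Of 9 negative acute phase genes, which the liver lowers in the same response, 6 had higher means (43.8% of all genes did). Their median difference was 0.02. Without mouse 26, 4 of 9 had higher means. Cyp8b1, a bile acid synthesis enzyme, was 9.34, 9.73 and 9.58 in the GFP livers, then 9.30, 7.96 and 8.14 in the SHH livers. It was the list's only gene at an unadjusted p under 0.05 in limma, where 4.01% of all genes were lower, and none passed over all genes. Cyp8b1 differed by -1.08 (95% interval -1.79 to -0.38; limma, adjusted p = 0.521), and without mouse 26 it passed, with a difference of -1.50 (adjusted p = 0.0172). Rbp4, the plasma retinol carrier, was lower in every SHH liver, with a difference of -0.19.

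Receptors and clearance genes of serum amyloid A had small differences. Of 11, 10 had higher means (43.8% of all genes did), with a median of 0.17, and none passed over all genes. At an unadjusted p under 0.05 in limma 1 was lower, as were 4.01% of all genes. That gene was Cd36, a scavenger receptor for lipids and lipoproteins, which was 7.92 to 8.14 in SHH livers and 8.16 to 8.85 in GFP livers, a difference of -0.59 (95% interval -1.03 to -0.15). Scarb1, the lipoprotein receptor SR-BI, differed by 0.26 (95% interval -0.09 to 0.62), and Tlr2, an innate immune receptor, by 0.46 (95% interval -0.04 to 0.97). The formyl peptide receptor gene Fpr2 had 2.49 to 3.18 on all arrays, below every array median.

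Genes of the high-density lipoprotein particle, which carries serum amyloid A, had lower means for 7 of 11, near the 12457 of 22180 over all genes. Their median difference was -0.09 (-0.04 without SHH mouse 26), against -0.03 over all genes. None passed the threshold over all genes in limma, and 1 was higher at an unadjusted p under 0.05, against 3.33% of all genes. Apoa1, the particle's main apolipoprotein, differed by 0.16 (95% interval -0.13 to 0.46). The apolipoprotein genes Apom and Apoe differed by 0.33 and -0.30, each without overlap between the groups. Apoa2 and Apoc3, both at -0.11, were also lower in every SHH liver. In all, 1 gene of the list had every SHH liver above every GFP liver (5.26% of all genes did). Every SHH liver was below for 3 (1607 of 22180 over all genes). Abca1, the transporter that loads cholesterol onto the particle, differed by 0.22.

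Partners of the pentraxins had higher means for 9 of 10 genes (43.8% of all genes did). Their median difference was 0.60, which was 0.30 without SHH mouse 31. None passed over all genes, and 5 were higher at an unadjusted p under 0.05 in limma, against 3.33% of all genes. C4b, a complement component, was 10.45, 10.14 and 10.37 in the GFP livers, then 10.66, 11.25 and 11.02 in the SHH livers, with no overlap. C1qc, a chain of the complement starter C1q, and the Fc receptor genes Fcgr4 and Fcgr3 differed by 0.62, 0.93 and 0.59, with mouse 31 highest for all 3. Most markers of macrophages, neutrophils and monocyte-derived cells also had higher means (given with the other marker lists). Which cells carried these differences was not tested. The long and neuronal pentraxin genes, relatives of Apcs and Crp, had differences of at most 0.10 in size, among them Ptx3 at 0.01 (95% interval -0.34 to 0.36) and Ptx4 at -0.10. Ptx3 and Ptx4 were below every array median.

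Genes next to or near the Saa and Crp loci had differences of at most 0.39 in size. Of 10 such genes, 4 had higher means, near the 43.8% of all genes. None passed over all genes in limma or had an unadjusted p under 0.05, and none had groups without overlap. Those with the smallest p were the lactate dehydrogenase genes Ldhc (-0.27) and Ldha (0.39), the immune receptor gene Slamf8 (0.20) and the transcription factor IIH subunit gene Gtf2h1 (-0.12).

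Markers of other cell types were read because Saa3 in particular can come from cells other than hepatocytes. All 11 Kupffer cell and macrophage markers had higher means, and the log2 of their summed signal was 10.12 to 10.86 in GFP livers and 10.82 to 11.73 in SHH livers. Their median difference was 0.67, and without SHH mouse 31 it was 0.38 with 10 of 11 higher. Every SHH liver was above every GFP liver for 2 of the 11 (5.26% of all genes). All 12 neutrophil markers had higher means, with a summed level of 7.26 to 7.47 in GFP livers and 7.52 to 8.53 in SHH livers. Most of them were dim: 3 were below the median on every array, and only 1 had a mean signal above the median level over all genes. Markers of monocyte-derived cells were higher for 6 of 7, with summed levels of 8.19 to 8.51 and 8.87 to 10.06. Stellate cell and myofibroblast markers were higher for 8 of 10, with summed levels of 10.79 to 11.02 and 10.97 to 11.14. Adipocyte markers were higher for 2 of 6, with summed levels of 7.01 to 7.34 in GFP livers and 6.84 to 7.04 in SHH livers. Hepatocyte markers were higher for 6 of 10, with summed levels of 15.89 to 15.90 and 15.84 to 15.95. The part of these cells in the values of Saa3 and the other members was not tested. Mpeg1, a macrophage pore protein, was 7.67 to 8.01 in GFP livers and 8.81 to 9.47 in SHH livers, and the neutrophil calprotectin gene S100a9 was 3.38 to 3.60 and 4.09 to 6.03. No marker passed over all genes in limma. At an unadjusted p under 0.05, 7, 6 and 5 of the macrophage, neutrophil and monocyte-derived markers were higher. Of all genes 3.33% were higher at that p, and 43.8% had higher means. In the other marker lists, 4 of 12 neutrophil and 5 of 7 monocyte-derived markers had every SHH liver above every GFP liver. So did 1 of 10 stellate cell, 1 of 6 adipocyte and 0 of 10 hepatocyte markers, against 5.26% of all genes. Without mouse 26, 1, 3 and 2 of the macrophage, neutrophil and monocyte-derived markers passed, where 0.135% of all genes were called higher.

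Genes of like pattern were sought by Pearson r over the 6 arrays among 1556 named genes whose signal ranged over at least 1 on the log2 scale. The arrays fall into 2 groups and share the same livers, so r describes these 6 arrays. For the mean of Saa2 and Saa3 the most alike were the acid glycoprotein genes Orm1 (r = 0.995) and Orm2 (0.992), Lcn2 (0.995) and Fos (0.993), and 78 genes had r above 0.9. Taken alone, the 2 genes had different lists. Saa2 had Orm1 (0.997), Lcn2 (0.9945), Cxcl1 (0.9915) and Orm2 (0.985), with 87 genes above 0.9. Saa3 had Ighm (0.986), Fgl1 (0.981), Ccr2 (0.981) and Ctsc (0.98), with 69 genes above 0.9. Likeness of pattern did not mean likeness of size, since Orm1 differed by only 0.58 between the groups and Lcn2 by 3.59. For Apcs they were Tmem176b (0.995), the thyroxine-binding globulin gene Serpina7 (0.995), Mt2 (0.994) and the kinase gene Map3k1 (0.993), with 96 genes above 0.9.

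Saa4 and Crp had other genes beside them. For Saa4 they were the muscle genes Tnnc2 (r = 0.966), Myh4 (0.965) and Myom1 (0.965), which encode sarcomere proteins, and the growth factor receptor gene Gfra1 (0.961), with 22 genes above 0.9. The muscle gene Myh4 was 4.98 in mouse 28, the liver in which Saa4 was highest, and 2.72 to 3.39 in the other 5 livers. What these muscle transcripts have to do with the Saa4 values was not tested. For Crp they were Slc45a3 (0.971), Idi2 (0.951), Papss1 (0.948) and Cstdc6 (0.923), with 7 genes above 0.9.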

How the data were processed

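Total RNA from 6 livers was hybridised to 1 array each. The deposited values are log2 signals, made with RMA per the submitters' processing notes, which corrects background, equalises the arrays and summarises probes. The sources used here give neither its version nor the annotation it used. Platform annotation named 1 gene for 23521 of 41345 probe sets, several for 1814 and none for 16010. RefSeq gene identifiers changed 0 symbols, and gene coordinates are printed only for promoter windows.

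The groups were set against each other in limma 3.58.1 under R 4.3.3, two-sided and with no covariate (lmFit, then eBayes), over 22180 genes, with Benjamini-Hochberg adjustment over all of them. The number of arrays limits the precision, and an exact permutation test of 3 livers against 3 cannot go below 0.1. Only the plain limma comparison was tested on simulated data, with spreads drawn from its fitted prior. The alternatives, permutation tests, pattern search and promoter matches were not part of that test. The labels give no batch.

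The members and gene lists were chosen with earlier results of these data known. The text names all members, up to 4 genes per list by the smallest unadjusted p, a fixed set of cytokine, receptor and acute phase genes, and the 4 genes of most like pattern to the mean of Saa2 and Saa3 (the rule also held Saa1, which was not measured alone), to Saa4, to Apcs and to Crp. The 4 genes most like Saa2 alone and Saa3 alone were added. From some lists fewer genes are named. Orm1 is named through its pattern. Jun, Irak1, Il1rap, Traf6, Apoa2 and Apoc3 are named because their means were lower where named genes of the same list were higher. Alternatives were other choices of probe set, a second quantile normalization, equal array medians, only genes above the median level, a trended or robust prior, array weights, every probe set on its own, and each mouse left out.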

Additional observations from a re-analysis of the deposited data

How the results depend on the processing

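The difference of each of the 6 probe sets stayed above 0 under every alternative that was run, and none passed the threshold except Saa2, Saa3 and Apcs without SHH mouse 26. With each mouse left out in turn, the differences on the log2 scale ranged from 2.33 to 4.96 for Saa2, 1.46 to 2.34 for Saa3, 1.504 to 2.62 for Apcs, 2.19 to 4.34 for the shared Saa1 and Saa2 probe set, 0.14 to 0.63 for Saa4 and 0.10 to 0.39 for Crp. The lowest values of Saa2, Apcs and the shared probe set came without SHH mouse 28, that of Saa3 without SHH mouse 31. The number of genes higher over all genes ranged from 0 to 30 and of genes lower from 0 to 16, both highest without SHH mouse 26, and was 0 under the other alternatives. The number of members with every SHH liver above every GFP liver ranged from 2 to 5, and 3 members differed by at least 1 throughout. Array weights gave 3.03 for Saa2, 1.63 for Saa3 and 1.80 for Apcs. The cause of these changes was not tested. No paired analysis was possible because no mouse number occurs in both groups. The shared probe set was not run with the alternative choices of probe set, which apply to probe sets naming 1 gene.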
